A study of Arapaima gigas with 24 samples.

Results

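The 100 gene models described here lay higher in the brain than in the gonad of the same animal in all 6 Arapaima gigas examined, and their difference was the largest among gene models that did so. They are 100 of 22016 gene models counted. The members were chosen by the same measured values that are given below, so the difference between brain and gonad is a description of them and was not tested. Members were read from a centred level, log2(CPM + 0.5) minus the median of that sample over all gene models, where CPM is the count of a gene model per 1000000 counts of the sample. The rule dropped the 220 gene models of highest mean CPM and a further 5420 whose mean level differed between males and females by 0.3 or more in either tissue, which left 16376 eligible gene models. Brain exceeded gonad in all 6 fish in 474 of these, and the 100 of largest mean difference were kept.

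A. gigas, the pirarucu, is a large air-breathing fish of South American fresh waters. Farmed fish of at least 4 years and 100 to 120 cm in length were sampled during their reproductive period, 3 females identified by primary oocytes in the ovary and 3 males identified by spermatozoa in the testis. Poly(A) RNA of the brain and gonad of each fish was sequenced in 2 libraries, called run 1 and run 2 here, whose counts were added, so that each of the 4 groups (female brain, male brain, ovary, testis) held 3 fish. The labels give no treatment or genetic change for any group. The question of the study was which genes differ between males and females in these tissues.

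Brain is made largely of neurons and glial cells, and in vertebrates a large share of genes for synaptic transmission, axons, myelin and neuropeptides is transcribed there at far higher levels than elsewhere. Ovary and testis hold germ cells, which carry transcripts for meiosis, gamete structure and small RNA pathways, beside somatic cells that make sex steroids. Brain and gonad are therefore usually among the most unlike tissues of a vertebrate. The deposited table lists its gene models under identifiers without gene names, and none of them is annotated here. Marker genes of neurons, glia, germ cells and gonad somatic cells could therefore not be looked up, the tissue labels were not checked against them, and no function is given to any member. Identifiers are not printed, and members are called by their rank in mean difference.

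Depth sets the counting error of these values, which does not cover differences between fish. The 12 samples held 5689872 to 13142667 counts, and the median member had a mean of 125 counts per sample, against 250 counts for the median eligible gene model. The rarest member had 4 to 20 counts per sample. Of the 100 members, 10 fell under 20 counts in some sample, compared with 2.42% of eligible gene models. Members were less abundant than the gene models they were drawn from, with a median level of 12.5 CPM against 25.2 CPM.

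The differences were small. The median member was 1.23-fold higher in brain, a mean difference of 0.30 on the log2(CPM + 0.5) scale, and the middle of the list, from the lower to the upper quartile, ran from 0.27 to 0.36. The median over all eligible gene models was 0.01. Folds here are 2 to the power of the mean difference in centred level and are not ratios of CPM. Mean folds reached 1.2 in 84 members and 1.5 in 2 members, and the highest was 1.92. Mean folds of this size were not confined to members. Of the 16376 eligible gene models, members included, mean folds reached 1.2 in 254, 1.5 in 3 and 2 in 1. Those outside the 100 members were not higher in brain in every fish. So small a contrast among eligible gene models is unlike the one described above as usual for these tissues, and the reason was not tested. These counts do not cover the gene models that the rule dropped. The median difference of the 100 chosen was 0.36 with sex-different gene models kept and 0.30 with the most abundant kept. Since brain and gonad are bulk tissues, fewer cells of a type and less RNA per cell cannot be told apart in any of these values.

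Rank 1 was held by a member with a mean difference of 0.94 ± 0.60 (SD, n = 6 fish), or 1.92-fold. In brain, females 1, 2 and 3 had 14.6, 24.4 and 25.3 CPM, whereas males 1, 2 and 3 had 24.0, 20.7 and 20.5 CPM. In gonad, the females had 10.9, 9.55 and 7.30 CPM and the males 9.43, 18.0 and 7.65 CPM. The ranges of the tissues overlapped, because the testis of male 2 was above the brain of female 1. Brain exceeded gonad by 1.35 and 1.66 in females 2 and 3 but by 0.25 in female 1, and by 1.08 and 1.14 in males 1 and 3 but by 0.17 in male 2. Its difference varied more over fish than that of any other member.

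Rank 2 followed with 0.91 ± 0.19 (SD, n = 6 fish), or 1.88-fold, and differed by at least 0.68 in every fish. Its brain levels were 21.7, 21.4 and 16.7 CPM for the females, with 30.2, 29.1 and 29.0 CPM for the males. Its ovary levels were 11.97, 9.44 and 8.67 CPM, and its testis levels were 15.0, 14.9 and 11.2 CPM. Every brain sample lay above every gonad sample. The mean centred level was higher in males by 0.28 in brain and by 0.25 in gonad, just under the threshold of 0.3 at which the rule would have dropped it as sex-different. The single-run differences were alike, 0.92 in run 1 and 0.91 in run 2.

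**Figure D1:**
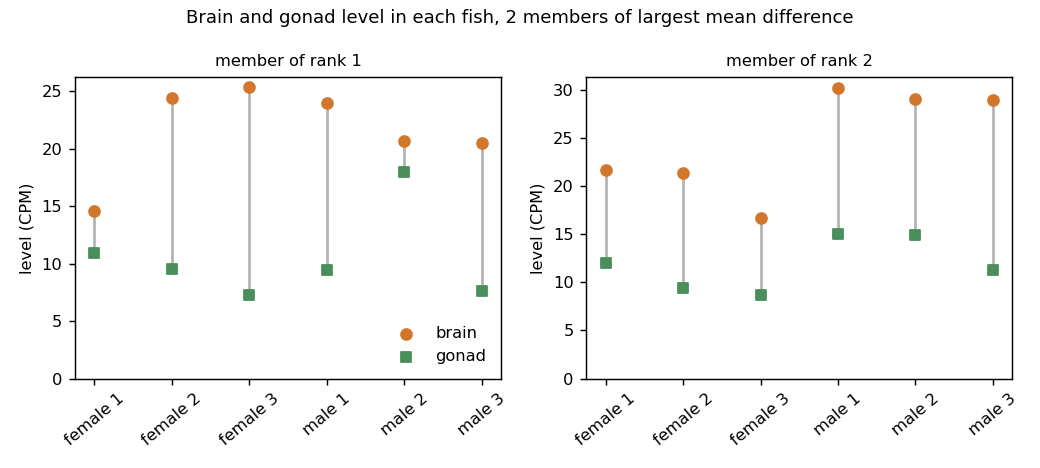
Level in CPM (vertical axis, from 0) of the members of rank 1 and rank 2 in brain (circles) and gonad (squares) of each fish, with a line joining the tissues of 1 fish. For the former the gap is narrowest in female 1 and male 2, with differences in centred level (log2) of 0.25 and 0.17. For the latter the difference in centred level is at least 0.68 in all 6 fish.

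A step separated these gene models from the remaining members. The member of rank 3 had a mean difference of 0.53 ± 0.19 (SD, n = 6 fish), at 3.52 to 4.99 CPM in brain and 2.25 to 2.73 CPM in gonad, or 18 to 52 counts per sample. Ranks 4, 5 and 6 followed at 0.48 ± 0.33, 0.48 ± 0.12 and 0.48 ± 0.32 (SD, n = 6 fish). The member of rank 5 was the steadiest of these, with 11.6, 10.9 and 10.9 CPM in female brain, 15.8, 14.0 and 12.9 CPM in male brain, 6.82, 8.81 and 6.87 CPM in ovary and 9.43, 10.9 and 7.08 CPM in testis. From there the list declined slowly and without a break at its end. The last members inside the size threshold had mean differences of 0.249, 0.247 and 0.246 at ranks 98, 99 and 100, and the next gene models outside it had 0.246, 0.245 and 0.245.

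**Figure D2:**
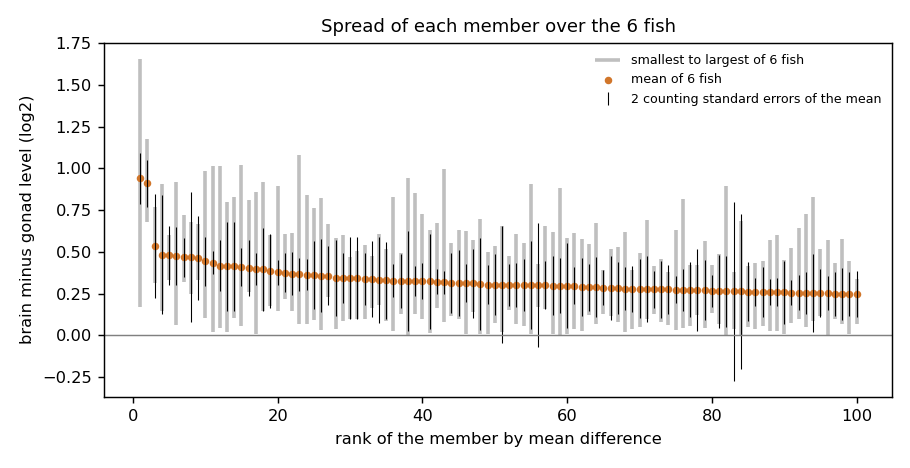
Brain minus gonad level (log2) of each member, ordered by its mean over 6 fish (points). Grey lines span the smallest to the largest fish, and thin black lines are 2 counting standard errors of the mean on either side; ranks 1 and 2 stand at 0.94 and 0.91, rank 3 at 0.53 and rank 100 at 0.246.

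Many members met the rule narrowly in at least 1 fish. The smallest of the 6 differences was under 0.05 in 34 members, at least 0.1 in 38 and at least 0.2 in 9. For each fish the counting error of the difference was computed from the counts of both tissues, which covers counting error alone. Brain exceeded gonad by more than 2 counting standard errors in all 6 fish in 2 members, in 5 fish in 2, in 4 fish in 14 and in no fish in 18. Thus 18% of members passed this mark in at least 4 fish, against 0.537% of eligible gene models, a contrast that the choice of members fixes.

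The members past the mark in all 6 fish were those of rank 2 and rank 7, the latter singled out after its values were seen. The member of rank 7 stood at 28.5, 20.7 and 29.2 CPM in female brain and 30.7, 29.8 and 28.5 CPM in male brain. In ovary it stood at 18.9, 13.5 and 16.7 CPM and in testis at 20.3, 23.3 and 19.0 CPM. Its differences ran from 0.32 to 0.72, with a mean of 0.47 ± 0.17 (SD, n = 6 fish). Female 2 was lowest in both tissues, and brain and gonad overlapped between fish only through its brain sample on the CPM scale. On the centred level all 6 brain samples of this gene model were above all 6 gonad samples.

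Such full separation of the tissues was found in 18 of the 100 members, compared with 0.189% of eligible gene models. It rests on the contrast used to choose them and is given as a description. The most abundant member, of rank 11, was among the 18, with 69.8 to 98.8 CPM in brain and 45.0 to 75.2 CPM in gonad. This member separated on the centred level only, since in CPM the testis of male 2 lay above the brain of female 1. Its difference nevertheless ranged from 0.02 in female 1 and 0.07 in male 2 to 1.02 in female 3. The member with the least varying difference, of rank 56, lay at 0.17 to 0.43 in the 6 fish but held only 11 to 45 counts per sample. The member of rank 65, also among the 3 least varying, held 148 to 415 counts and differed by 0.13 to 0.39.

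The size of the difference varied with the fish. Over the 100 members its median was 0.28, 0.30 and 0.38 for females 1, 2 and 3 and 0.25, 0.21 and 0.37 for males 1, 2 and 3, while the medians over eligible gene models lay between -0.005 and 0.06. Female 3 gave the largest of the 6 differences in 30 members and male 3 in 22, whereas male 2 did so in 3. Among the 16376 eligible gene models these fish did so in 3179, 3793 and 1512, so male 2 was also the rarest there. The smallest difference fell in male 2 in 26 members and in female 1 in 25, against 1998 and 2849 of the eligible gene models. In female 3 it fell in 13 members and in 3904 eligible gene models, the most of any fish among the latter. The brain of female 3 had the fewest counts of the 12 samples, 5689872, and the part of depth was not tested. Summed over the members, the level was 1844, 1675 and 1872 CPM in female brain, with 2270, 2209 and 2093 CPM in male brain. It was 1396, 1265 and 1286 CPM in ovary, with 1539, 1904 and 1366 CPM in testis. The sum was higher in the brain of every fish, but on the CPM scale the testis of male 2 exceeded the brain of all 3 females. The sum over eligible gene models was also higher there, at 649848 CPM in the testis of male 2 against 588998, 477011 and 541646 CPM in female brain. As a percentage of that eligible sum the members held 0.313% to 0.351% in brain and 0.242% to 0.293% in gonad, and the tissues did not overlap. The sums and shares rest on the contrast used to choose the members and are given as a description.

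**Figure D3:**
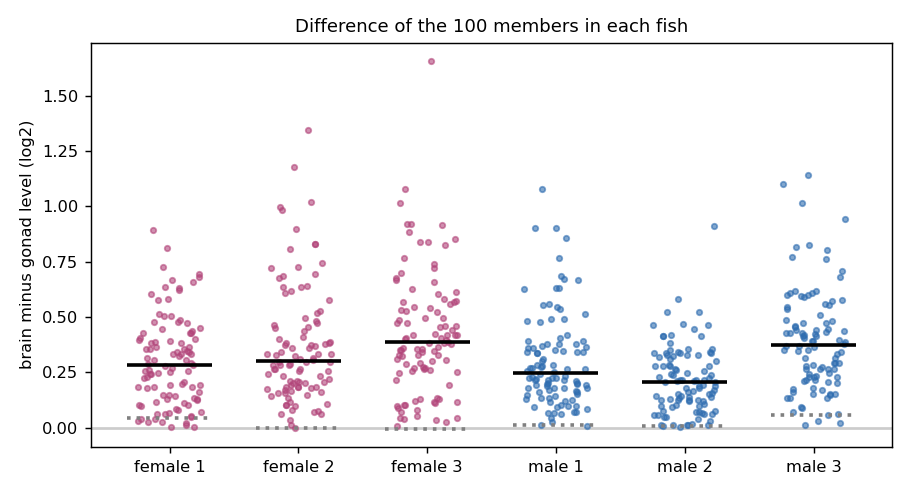
Brain minus gonad level (log2, vertical axis) of the 100 members in each of the 6 fish, females and males in different colours. Black lines are medians over the members, from 0.21 in male 2 to 0.38 in female 3, and dotted lines are medians over all eligible gene models, which lie near 0.

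The rule held the mean difference between the sexes under 0.3 in each tissue. Within that limit the median difference between brain and gonad was 0.34 in females and 0.28 in males, and 69 of 100 members had the larger mean difference in females, against 48.2% of eligible gene models. The members' median male minus female difference was 0.04 in brain, where eligible gene models also had 0.04. In gonad it was 0.11 in members and 0.02 in eligible gene models, so the testis lay slightly above the ovary in the typical member. These values were bounded by the choice of members and were not tested.

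Fish of 1 sex also differed from each other. The standard deviation over the 3 fish of a group, pooled over females and males, had a median of 0.17 in brain and 0.18 in gonad over the members. Over eligible gene models these medians were 0.12 and 0.17. Counting error was also larger in the members, with a median standard error of the mean difference of 0.080 against 0.055. Deviations of members from their group means over the 12 samples correlated with each other at a mean r of 0.08 between pairs of members, against 0.01 between pairs of eligible gene models. At these counts so weak a correlation is no finding.

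**Figure D4:**
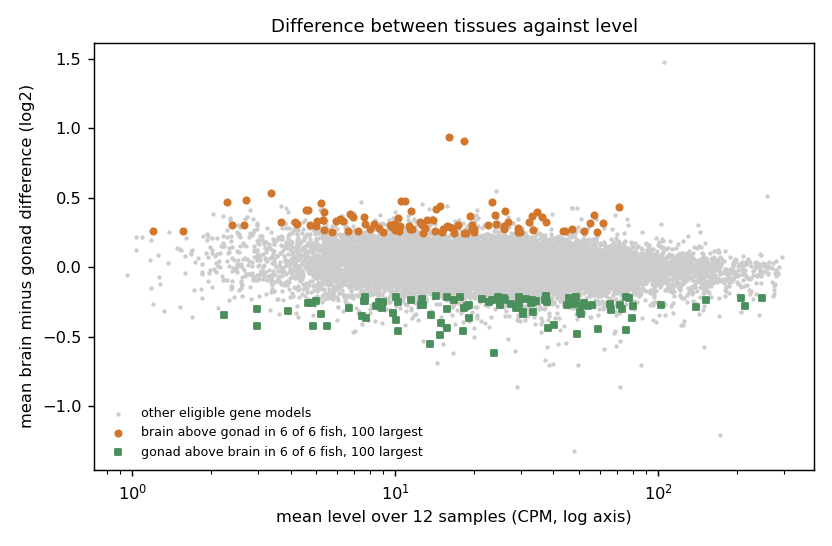
Mean brain minus gonad difference (log2) against mean level over 12 samples (CPM, log axis) for the eligible gene models. The 100 members (circles) have a median level of 12.5 CPM and the 100 gene models chosen the same way with gonad above brain (squares) one of 25.04 CPM; some eligible gene models differ more in the mean but not in the same direction in every fish.

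Members were drawn mainly from gene models of low level. When all gene models were divided by mean level into classes of 20% each, the lowest class, up to 11.3 CPM, held 46 members and 17.8% of the eligible gene models. The next classes held 26, 13, 10 and 5 members in order of rising level. The share of eligible gene models with brain above gonad in all 6 fish was more even, at 3.13%, 3.01%, 3.33%, 2.92% and 1.90% from the lowest to the highest class. The spread of the difference over fish fell along the same order, with a median SD of 0.28 in the lowest class and 0.17 in the highest. The median difference over all gene models also changed with level, in a direction that varied with the fish. From the lowest class to the highest it went from 0.14 to -0.05 in male 3, from 0.08 to -0.10 in female 3, from 0.03 to -0.05 in male 1 and from 0.05 to -0.0069 in female 1. In female 2 it went from -0.02 to 0.02 and in male 2 from -0.0059 to 0.02. When the trend with level was removed from each sample, 81 of the 100 members were still higher in brain in every fish, with a median difference of 0.27 over all 100, and its part in the choice of the remaining members was not tested.

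Consistent differences were more often towards brain than towards gonad. Brain exceeded gonad in all 6 fish in 474 or 2.89% of eligible gene models, and gonad exceeded brain in 211 or 1.29%. This share of 69.2% towards brain depended on the centring, being 60.5% with DESeq2 size factors and 95.7% with total counts only, where 644 gene models were consistently higher in brain and 29 in gonad. With total counts only the median difference of all gene models moved to 0.12 from 0.00497. The 100 largest differences towards gonad were of similar size, with a median of -0.27, and came from more abundant gene models, with a median of 25.04 CPM. The difference between the lists was not tested. Even without a difference between tissues some gene models would lie in 1 direction in all 6 fish. Their share was not computed, so neither 474 nor 211 is read as an excess.

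The edgeR quasi-likelihood test over all gene models called 1 of the 100 members higher in brain at a Benjamini-Hochberg adjusted p under 0.05, which was the member of rank 2 and made up the 0.00454% of 22015 gene models called in that direction. With the fish as a block, pairing the tissues, it called 0. DESeq2 called 4 members, where it called 0.0501% of all gene models higher in brain. At an unadjusted p under 0.05, edgeR had 88 members and 3.08% of all gene models. The rule chose on this contrast, so these counts are background and support nothing about the members.

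Whether the direction carried over to a fish that had no part in the choice was read by repeating the whole rule in 5 fish and looking at the sixth. Gene models chosen without a fish were higher in the brain of that fish in 44 of 100 for female 1, 53 for female 2, 63 for female 3, 65 for male 1, 59 for male 2 and 65 for male 3. Over all gene models eligible in the same 5 fish the shares were 58.2%, 49.3%, 48.7%, 53.8%, 52.1% and 58.4%. The chosen gene models were thus 3.69 to 14.3 percentage points above the eligible ones in 5 fish and 14.2 points below them in female 1, and the mean excess of 4.74 points was smaller than its SD of 10.0 over the 6 fish. The choices share fish with each other, so no p is given.

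In the fish used to choose them these gene models had a median difference of 0.32 to 0.36. In the fish left out the median was -0.06, 0.05 and 0.10 for females 1, 2 and 3 and 0.11, 0.05 and 0.13 for males 1, 2 and 3, a mean of 0.06 ± 0.07 (SD, n = 6 fish), where eligible gene models had a mean of 0.018. Gene models chosen as gonad above brain were higher in the gonad of the fish left out in 48 to 70 of 100, with a mean excess of 8.76 ± 8.57 percentage points (SD, n = 6 fish) over eligible gene models and a median difference of 0.02 ± 0.04. The difference between the directions was not tested.

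The choice was also made in the 3 fish of one sex and read in the other, where the limit on sex difference cannot be applied and 21796 gene models were eligible. Of 100 gene models chosen in females, 53, 63 and 68 were higher in the brain of males 1, 2 and 3, and of 100 chosen in males, 57, 62 and 70 were higher in the brain of females 1, 2 and 3. These shares were 2.29 to 21.3 percentage points above those of eligible gene models, above them in all 6 fish, with a mean of 10.2 ± 6.85 (SD, n = 6 fish). The median difference was 0.13 ± 0.08 (SD, n = 6 fish), against 0.65 in the females and 0.50 in the males used to choose. These lists shared few gene models with the 100 members, 7 and 10, and the fish read in each case share 1 list, so no p is given. Chosen as gonad above brain in females, 72, 59 and 55 of 100 were higher in the testis of males 1, 2 and 3. Chosen so in males, 94, 40 and 35 of 100 were higher in the ovary of females 1, 2 and 3. Their excess over eligible gene models ran from -16.3 to 48.7 percentage points. Its mean was 11.2 ± 23.3 (SD, n = 6 fish).

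**Figure D5:**
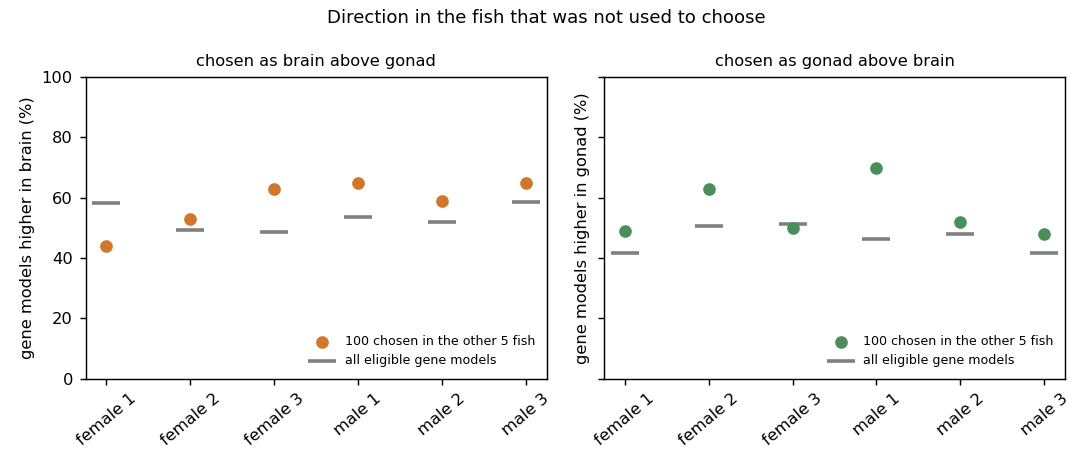
Percentage of 100 gene models that kept their direction in the fish named below, which was not used to choose them (points), and of all eligible gene models in that direction (bars). Points run from 44% to 65% for gene models chosen as brain above gonad and from 48% to 70% for those chosen as gonad above brain.

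Membership changed with the fish. The 6 lists chosen without 1 fish each held 375 different gene models in all, and shared 43 to 58 with the 100 members. Of the members, 11 were in all 6 lists, 25 in at least 5 and 8 in none. A member missing from a list had crossed the limit on sex difference in 91 cases and had too small a difference among that list in 203. Rank 2 was in 2 of the 6 lists and crossed the sex limit in the other 4, and rank 1 was in 5.

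The counts of each run were also read alone. In a single run, 56 members were higher in brain in all 6 fish in run 1 and 38 in run 2, against 2.58% and 2.47% of eligible gene models, and 17 were in both, against 0.238%. The mean difference was above 0 in both runs in 99 members and in 38.1% of eligible gene models. These counts share reads with the choice, which fixes the contrast. Chosen afresh in run 1 and read in run 2, 11 of 100 gene models were higher in brain in all 6 fish, against 2.43% of those eligible, and their median difference was 0.19 in place of the 0.37 in the run used to choose. Chosen in run 2 and read in run 1, 14 of 100 were, against 2.39%, with medians of 0.14 and 0.35. The mean difference was above 0 in the other run in 90 and 81 of 100, against 53.9% of eligible gene models in each case. The labels do not explain the mark that tells the runs apart, so what they repeat beyond being libraries of the same fish and tissue is not stated, and they do not repeat the animals.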

How the data were processed

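The authors deposited raw counts of reads, unnormalized, for each gene model in each library. Reads were aligned to the Asian arowana genome, per the series design text, and Bowtie is named without a version in the submitters' processing notes. The sources used here give no counter, build, annotation, use of strand or treatment of reads with several places, so near-identical, overlapping or antisense gene models may share counts. RNA integrity numbers were 8.0 to 8.5 and reads 50 nt long, per the labels. Library totals were 2753506 to 6718148 counts.

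Counts of both runs were added and members found as in the report. The members and tests were chosen with earlier results of these data known. Counts were tested over 22015 gene models in edgeR 4.0.16 (quasi-likelihood, TMM, default filter with a minimum count of 10, Benjamini-Hochberg) in R 4.3.3, on 12 samples in 4 groups, brain minus gonad averaged over sexes; DESeq2 1.42.0 and limma-voom 3.58.1 were alternatives. The rule, the reading in a fish left out and the edgeR, DESeq2 and limma-voom fits were tested on simulated counts. The differences planted there were larger than those of the members. Brain and gonad of a number come from 1 fish per the labels, and their deviations from the group means correlated over gene models at r = -0.02, 0.31 and 0.04 for the females, and at -0.05, 0.05 and -0.14 for the males. The trend correction removes from each sample a lowess trend (span 0.3) of level on mean level. Counting standard errors come from Poisson variances of the counts. Named members are ranks 1 to 6 and 98 to 100, the next 3 outside, and the 3 highest, lowest, least and most varying. Lists of marker genes could not be matched to identifiers and were not run. The reading across runs was added after the data were seen.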

Additional observations from a re-analysis of the deposited data

Results flagged for a closer look

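The member of rank 43, among the 3 of highest level, stood out in 1 fish. Its brain exceeded its gonad by 0.997 (log2) in female 2 and by 0.08 to 0.35 in the other 5 fish. It was flagged because the gap to the nearest fish took up 0.707 of the range of the 6 values. Its brain level in female 2 was 86.5 CPM, above the 57.9 to 76.5 CPM of the other brains, and its ovary level there was 44.3 CPM, the lowest gonad value. Of 22 series of 6 values examined this way it was the 1 flagged. For unselected normal values chance flags about 1 in 20. The members' values were chosen to lie above 0, and some series by their spread, so that rate need not hold here.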

How the results depend on the processing

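The median difference over the 100 gene models chosen was 0.30. It was 0.23 with a pseudocount of 5 CPM and 0.41 with total counts only, and 0.32 to 0.36 without 1 fish. Of the 100 members, those also chosen were 58 with a pseudocount of 5 CPM, 33 with total counts only, 40 in run 1 only, 23 in run 2 only, 62 with sex-different gene models kept, and 43 to 58 without 1 fish; the cause was not tested. The number consistently higher in brain was 645 to 923 without 1 fish, where fewer fish have to be in the same direction. In the fish left out, 58.2% were higher in brain, or 72.2% with total counts only against 62.2% of eligible gene models there, with a median difference of 0.06 or 0.17. In run 2 only the share was 52.7%, against 52.8% of eligible gene models. The edgeR count of gene models higher in brain was 1, and 0 with the replicate block, in run 1 only and in run 2 only. DESeq2 called 11 and, with the block, an alternative added after the data were seen, 2. Of the members, edgeR called 1, and 0 with the block or in a single run; DESeq2 called 4, and 0 with the block. The block left the DESeq2 adjusted p undefined for 11525 of 22016 gene models, ranks 1 and 2 among them, against 485 without it, so these gene models are not counted as lost calls. Without 1 fish edgeR called 0 to 3 gene models, and the 1 member was called without female 1 and lost without each other fish. The remaining alternatives left these values within 1 SD over fish or 1.5 times of a count. Depth limits the rarest members most.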
